A study of Saccharomyces cerevisiae with 14 samples.

Results

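The inositol- and choline-responsive phospholipid genes of budding yeast, which make, import or regulate the precursors of membrane lipids, were followed across 14 microarrays in 10 members: INO1, CHO1, PSD1, CHO2 and OPI3, which encode biosynthetic enzymes, ITR1 and HNM1, which encode transporters, and INO2, INO4 and OPI1, which encode transcriptional regulators. They are 10 of the 5449 Saccharomyces cerevisiae genes named on the array, each read by 1 probe set, and all 10 were among the 5415 genes bright enough to be tested. The set was chosen from its changes in each altered strain and its differences among the wild types in these same arrays. The values below therefore describe these genes. Counts of members past a threshold stand beside the share of all tested genes past it in the same comparison, and are not a test of the set.

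The study compared yeast that lacked or overproduced enzymes acting on lysine 4 of histone H3, with the stated aim of separating the roles of Jhd2 that depend on this methylation from those that do not. Set1 adds methyl groups at this position and Jhd2 removes them. Haploid cultures were grown at 30 °C and, started at an optical density (600 nm) of 0.2, were collected at 0.6 to 0.7 after 3 to 5 h. The sources used here do not give the inositol and choline content of the medium.

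Each altered strain had a wild type of its own experiment. The set1 deletion (2 arrays) carried set1::KanMx with his3-1, leu2-0, met15-0 and ura3-0. The jhd2 deletion (3 arrays) carried jhd2::KanMX with ura3∆0, his3∆1, lys2∆0 and le2∆0. The JHD2 overexpression strain (2 arrays) was a jhd2∆::KanMx deletion that also carried JHD2 O/E, with his3-1, leu2-0, lys2-0 and ura3-0, and the sources used here do not name the promoter of that construct. The wild types of the SET1 experiment (2 arrays), the JHD2 deletion experiment (3 arrays) and the overexpression experiment (2 arrays) share 1 label, in which TRP+, MET15+ and ADE+ stand with the markers ura3∆0, lys2∆0, his3∆1 and le2∆0. The labels call the replicates biological without naming the cultures, so the errors below measure the spread between these arrays.

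Yeast makes phosphatidylcholine stepwise from CDP-diacylglycerol through phosphatidylserine and phosphatidylethanolamine, and competes for the same CDP-diacylglycerol to make phosphatidylinositol from inositol. Many genes of these routes carry an inositol-sensitive promoter element bound by the paired activators Ino2 and Ino4. When inositol is scarce the repressor Opi1 is held outside the nucleus and the genes are transcribed, and when inositol and choline are plentiful Opi1 enters the nucleus and represses them, INO1 most of all.

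The arrays were checked against their labels before the members were examined. SET1 gave 1.13 and 3.31 signal units in the set1 deletion against 395 to 701 on the other 12 arrays, and JHD2 gave 0.23 to 3.41 in the jhd2 deletion, 5207 and 6237 in the overexpression strain and 119 to 226 elsewhere. LYS2 was high in the set1 deletion (mean 1437) and at most 10.5 in every other group, and MET17, the current name of MET15, was low in the set1 deletion (3.32) and 2747 to 5140 in the others, as the genotypes differ. The set1 deletion thus differs from its own wild type in LYS2 and MET17 as well as in SET1. Its changes below belong to the whole strain, and the part of these markers in them was not tested. LEU2, labelled as deleted in every group, averaged 6859 in the overexpression strain and 7085 in its wild type and at most 23.5 elsewhere. The arrays of the SET1 experiment had the high mating type a and low mating type alpha marker signals of MATa cells (medians 1047 and 131 in the deletion, 1141 and 124 in its wild type), and all others those of MATalpha cells (30.9 to 52.9 and 2822 to 3647). The 3 wild types are thus not alike in these markers although they share a label.

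Signals are Affymetrix MAS5 intensities on a linear scale, and changes are differences of mean log2 signal with the standard error of a linear model fitted to all genes and arrays in limma. A gene was called where its Benjamini-Hochberg adjusted p over the 5415 tested genes was under 0.05. All 140 member signals lay above the array background of 7.28 to 16.7, and the lowest, for INO1, was 38.3. Every value comes from RNA pooled over a culture, so fewer cells with a transcript and less transcript per cell cannot be told apart.

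INO1 (locus tag YJL153C) encodes inositol phosphate synthase, which makes inositol phosphate from glucose phosphate. It gave 50.8 and 82.8 signal units in the JHD2 overexpression strain, against 449 and 489 in the wild type of that experiment. The groups are far apart, by more than the spread within either. It gave 158 and 112 in the set1 deletion, against 76.0 and 64.8 in its wild type, also without overlap. In the jhd2 deletion INO1 gave 38.3, 46.6 and 59.1, against 45.6, 52.8 and 60.1 in its wild type, and these ranges overlap. The log2 change was -2.85 ± 0.30 (SE) with JHD2 overexpressed, a 7.22-fold lower signal, 0.92 ± 0.30 with SET1 deleted and -0.15 ± 0.24 with JHD2 deleted, and only the first was called. In order of mean signal, INO1 stood at 469 ± 28.4 (SD, n = 2) in the overexpression-experiment wild type and at 135 ± 32.3 (n = 2) in the set1 deletion. The other 4 groups had means from 70.4 down to 48.0, and each overlapped its neighbour in the order.

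OPI3 (YJR073C), the methyltransferase of the last steps to phosphatidylcholine, ranked differently. It gave 2644 and 2547 in the overexpression strain, against 4477 and 4422 in its wild type. It gave 2188 and 2127 in the set1 deletion against 1480 and 1762 in its wild type, and 1231, 1072 and 1524 in the jhd2 deletion against 1328, 1258 and 1416 in its wild type. The first 2 pairs of groups do not overlap and the third does. OPI3 was 1.71-fold lower with JHD2 overexpressed (log2 change -0.78 ± 0.15), and was called only just (limma, adjusted p = 0.0479). That call was kept in 5 of 14 omissions of 1 array. The change of OPI3 was 0.42 ± 0.15 in the set1 deletion (not called) and -0.08 ± 0.12 in the jhd2 deletion. Unlike INO1, OPI3 was still higher in the overexpression strain than on any array outside that experiment, with a mean of 2595 ± 68.8 (SD, n = 2) against 2157 ± 43.3 (n = 2) in the set1 deletion, the next group in order.

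CHO1 (YER026C), the phosphatidylserine synthase that commits CDP-diacylglycerol to this route, gave 1547 and 1646 in the overexpression strain against 2469 and 2335 in its wild type. With a log2 change of -0.59 ± 0.12, a 1.50-fold lower signal, CHO1 was the third member called, and only just: the call was kept in 4 of 14 omissions of 1 array. In the set1 deletion it gave 1421 and 1554 against 1254 and 1430 in its wild type, and in the jhd2 deletion 1242 to 1379 against 1275 to 1425, overlapping in both.

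PSD1 (YNL169C), the mitochondrial phosphatidylserine decarboxylase, gave 862 and 1121 in the overexpression strain against 1601 and 1411 in its wild type (log2 change -0.61 ± 0.18, not called). It gave 996 and 896 in the set1 deletion against 910 and 911 in its wild type, and 763 to 1074 in the jhd2 deletion against 869 to 1067, overlapping in both. CHO2 (YGR157W), which adds the first methyl group to phosphatidylethanolamine, varied least: its 14 signals ran from 3513 to 4448. CHO2 was also the only member whose arrays overlapped between the overexpression strain (3832 and 4268) and its wild type (4442 and 4208), at a log2 change of -0.10 ± 0.12. In the set1 deletion CHO2 gave 3965 and 4233 against 3517 and 3604 in its wild type, without overlap (0.20 ± 0.12, not called).

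The transporters moved less than INO1. ITR1 (YDR497C), the main inositol transporter, gave 2746 and 3199 in the overexpression strain against 4103 and 4016 in its wild type (log2 change -0.45 ± 0.15). HNM1 (YGL077C), the choline transporter, gave 1210 and 1513 against 2205 and 2243 (-0.72 ± 0.18). Neither was called, although neither gene's groups overlap. Both overlapped their wild types in the set1 and jhd2 deletions.

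The 3 regulator genes had wider errors than the transporters, from 0.23 to 0.54 log2 units in this comparison. INO2 (YDR123C) gave 107 and 103 in the overexpression strain against 280 and 292 in its wild type, a log2 change of -1.44 ± 0.54 that was not called. That error draws on the spread within all groups, not only within those compared. The SD of the log2 INO2 signal was 0.04 in the overexpression strain and 0.04 in its wild type. It was 0.96 in the jhd2 deletion and 0.74 in its wild type, and 0.37 in the set1 deletion and 0.47 in its wild type. The missing call for INO2 therefore rests in part on the spread in other experiments. INO4 (YOL108C), whose product pairs with Ino2, gave 252 and 359 against 681 and 544 (-1.02 ± 0.36, not called). OPI1 (YHL020C), the repressor, gave 440 and 631 against 801 and 727 (-0.53 ± 0.23, not called), so the genes for both activators and for the repressor had the same sign. The overexpression arrays also had a higher mean log2 ratio of 3′ over 5′ control probe sets (1.44 and 1.43) than those of their wild type (0.88 and 0.66). With that ratio as a covariate, a fit added after the data were seen and limited as given below, INO2 was at -0.33 and INO4 at -0.44. In the set1 deletion all 3 regulators had negative changes (INO4 -0.47 ± 0.36, OPI1 -0.16 ± 0.23, INO2 -0.14 ± 0.54) while all 5 enzymes had positive ones, and none of these 8 was called. Among the 3 regulators only OPI1 had groups without overlap there, at 307 and 312 in the deletion against 328 and 363 in its wild type.

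**Figure D1:**
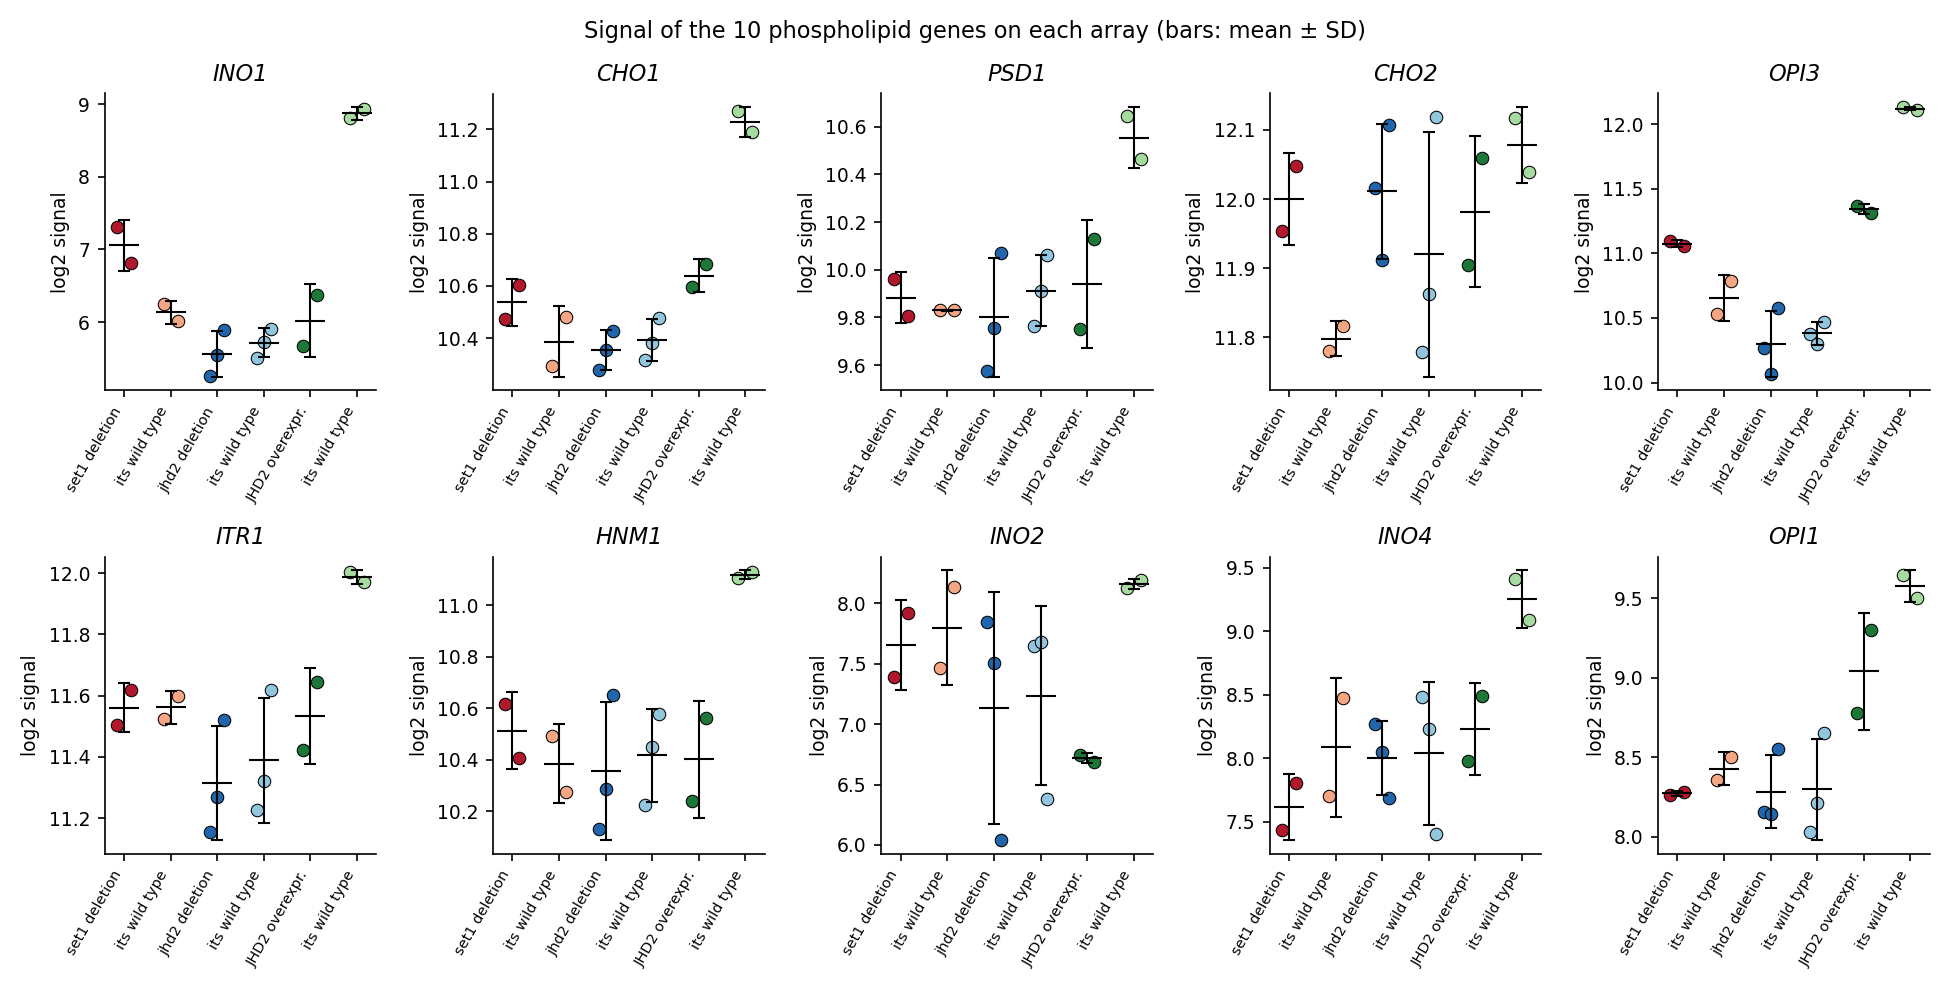
Signal of each of the 10 genes on every array, on a log2 axis that differs between panels, with each altered strain left of its own wild type; points are arrays, and bars are the mean ± SD of 2 or 3 arrays. The overexpression-experiment wild type has the highest mean in all 10 panels, and INO1 spans the widest range, from 38.3 to 489 signal units.

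Counted over the set, 3 of 10 members were called lower in the JHD2 overexpression strain than in its wild type (INO1, OPI3 and CHO1) and 0 higher, where 0.351% of all tested genes were called lower and 0.166% higher. All 10 changes were negative, with a median of -0.66 against 0.00 for all tested genes, and 9 of 10 members had groups that did not overlap, in the lower direction, against 31.9% of all tested genes. INO1 alone was left without either overexpression array, without either array of its wild type, without wild-type array 1 or 2 or deletion array 1 of the JHD2 deletion experiment, and without either set1 deletion array. The count was 2 (INO1 and OPI3) without jhd2 deletion array 2 and 4 without jhd2 deletion array 3, which adds HNM1.

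In the set1 deletion 0 of 10 members were called, against 0.259% of all tested genes, with a median change of 0.09 against 0.02. Of these, 2 (INO1 and OPI3) had an unadjusted p under 0.05 in limma, as did 8.33% of all tested genes. INO1, OPI3 and CHO2 had higher groups without overlap, where 19.4% of all tested genes did, and OPI1 a lower one, where 17% did. Together these are 4 of 10 members against 36.5% of all tested genes. In the jhd2 deletion 0 of 10 were called, against 0.0369%, and 0 had an unadjusted p under 0.05, where 1.83% of all tested genes did. All 10 members overlapped between the jhd2 deletion and its wild type, where 4.78% of all tested genes did not, and their log2 changes lay between -0.15 and 0.09 with a median of -0.07 against -0.04. These ranges are unpaired, so shifts shared by arrays of the same replicate number can widen them. Fitting that number, which was treated as pairing samples in this experiment, changed no member call.

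**Figure D2:**
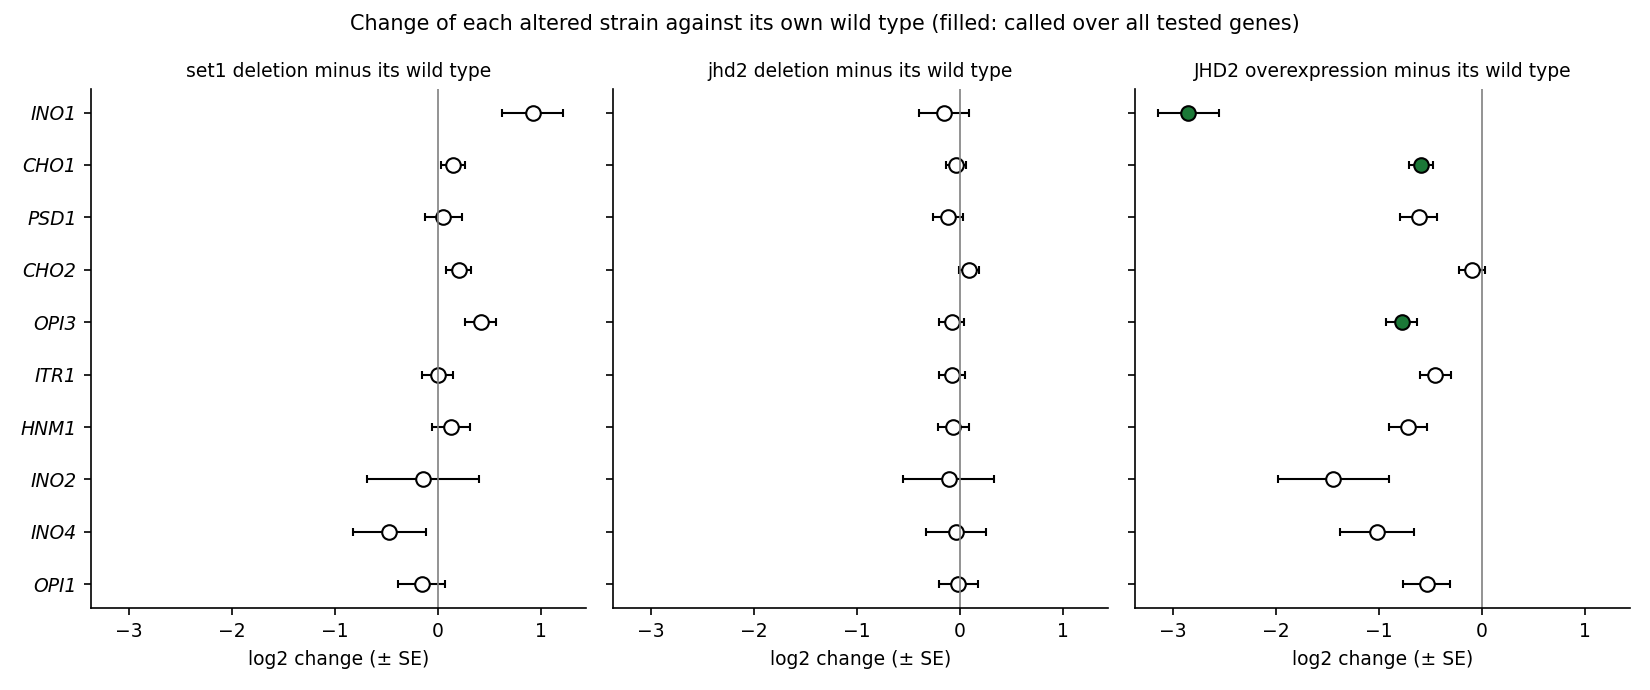
Log2 change of each gene (points, ± SE) in the set1 deletion, the jhd2 deletion and JHD2 overexpression, each against its own wild type; filled points were called over all tested genes. All 10 points lie below 0 with JHD2 overexpressed, and the jhd2 deletion has the narrowest range, from -0.15 to 0.09.

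Set against each other, these changes differed most at INO1. The change of INO1 was 3.77 ± 0.42 log2 units higher in the set1 deletion than in the overexpression strain and 2.70 ± 0.38 higher in the jhd2 deletion than in the overexpression strain. OPI3 differed by 1.20 ± 0.21 between the set1 deletion and the overexpression strain. These were 2 of 10 members called (0.185% of all tested genes were called higher) and, for the jhd2 deletion, 1 of 10 (0.0739% called higher). Between the set1 and jhd2 deletions 0 of 10 members were called, where 0.0739% of all tested genes were. The OPI3 call was absent without either overexpression array, either array of its wild type, either set1 deletion array, SET1-experiment wild-type array 1, any of the 3 wild-type arrays of the JHD2 deletion experiment or jhd2 deletion array 1. The INO1 call between the jhd2 deletion and the overexpression strain, 1 member, was absent without overexpression array 1 or either array of its wild type.

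The wild types themselves differed at these genes. The overexpression-experiment wild type had the highest mean of the 6 groups for 10 of 10 members. Both of its arrays lay above all other 12 arrays for 8 of 10, all but INO2 and CHO2, against 6.87% of tested genes. Against the wild type of the JHD2 deletion experiment, 8 of 10 members were called higher, where 10.7% of tested genes were called higher. INO1 was 8.92-fold higher (log2 difference 3.16 ± 0.27), OPI3 3.34-fold (1.74 ± 0.14), OPI1 2.42-fold (1.28 ± 0.21) and INO4 2.31-fold (1.21 ± 0.33). CHO1, HNM1, PSD1 and ITR1 were higher by 0.84, 0.70, 0.64 and 0.60, while INO2 at 0.92 ± 0.49 and CHO2 at 0.16 ± 0.11 were not called. The median over the 10 was 0.88, against 0.07 for all tested genes, and 9 of 10 had higher groups without overlap, against 31.7%. Without either overexpression-experiment wild-type array the count was 4 (INO1, OPI3, CHO1 and OPI1).

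The wild type of the SET1 experiment, with MATa marker signals, lay below that of the overexpression experiment, with MATalpha marker signals, for all 10 members. Of these, 6 were called lower, where 5.24% of tested genes were called lower. INO1 differed by -2.74 ± 0.30, OPI3 by -1.46 ± 0.15, OPI1 by -1.15 ± 0.23, CHO1 by -0.84 ± 0.12, HNM1 by -0.74 ± 0.18 and PSD1 by -0.72 ± 0.18. The median was -0.79, against -0.10 for all tested genes, and 9 of 10 had lower groups without overlap, against 34.3%. The count was 3 (INO1, OPI3 and CHO1) without SET1-experiment wild-type array 1 or overexpression-experiment wild-type array 1, and 4 without overexpression-experiment wild-type array 2. Between the wild types of the SET1 and JHD2 deletion experiments, which also differ in mating type, 0 of 10 members were called (0.388% of tested genes were) and 0 had an unadjusted p under 0.05 (13.5% of tested genes did). INO1 at 0.42 ± 0.27 and OPI3 at 0.28 ± 0.14 had groups without overlap there, higher in the SET1 experiment, as did 12.9% of tested genes. The LEU2 signal separates the wild types in the same way as INO1, and its part in the result was not tested.

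**Figure D3:**
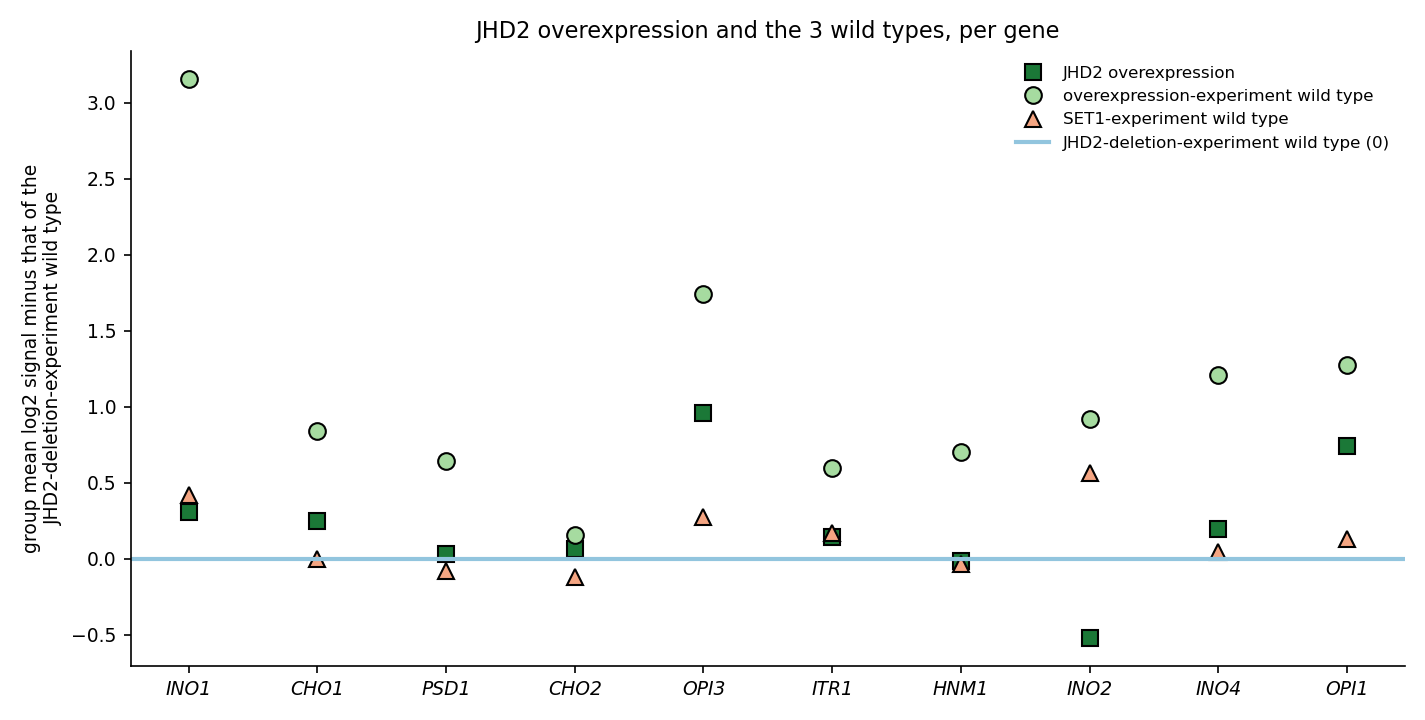
Mean log2 signal of each gene in the JHD2 overexpression strain and in the wild types, relative to the wild type of the JHD2 deletion experiment (line at 0). For INO1 the overexpression strain is at 0.31 and the SET1-experiment wild type at 0.42, while the overexpression-experiment wild type is at 3.16.

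Because the wild types differ, the overexpression strain was also set against the other wild types, a comparison chosen after the data were seen that spans experiments. Against the wild type of the JHD2 deletion experiment, INO1 in the overexpression strain was at 0.31 ± 0.27 and CHO1 at 0.25 ± 0.11, neither called. OPI3 was called higher at 0.96 ± 0.14 and OPI1 at 0.74 ± 0.21, 2 of 10 where 13.1% of tested genes were called higher. Against the wild type of the SET1 experiment OPI3 alone was called, at 0.68 ± 0.15, where 13.7% of tested genes were called higher, and INO1 was at -0.11 ± 0.30. The direction of the INO1 change thus turned against 1 of the other wild types and its call was lost against both, and the OPI3 and CHO1 changes turned against both. The shares that follow carry no error, and the overexpression-experiment wild type, the highest group for every member, enters both differences of each share. Expressed as a share of the gap between the wild types of the overexpression and JHD2 deletion experiments, the difference of the overexpression strain from its own wild type covered 90.3% for INO1, 102% for HNM1, 95.5% for PSD1, 83.9% for INO4, 75.9% for ITR1, 70.3% for CHO1, 60.9% for CHO2, 44.7% for OPI3 and 41.8% for OPI1. For INO2 it was 156%. INO2 in the overexpression strain was at -0.52 ± 0.49 and HNM1 at -0.02 ± 0.17 against the JHD2 deletion experiment's wild type, both overlapping it and neither called. The gaps of INO2 and CHO2 between those wild types were themselves not called.

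Some arrays differed in the balance of 3′ over 5′ probe sets for 7 control genes, a sign of RNA quality. As a mean log2 ratio over these genes it was 1.44 and 1.43 on the overexpression arrays against 0.88 and 0.66 on those of its wild type, and 1.33 and 1.50 on replicate 3 of the jhd2 deletion and of its wild type. The 4 arrays ran from 1.33 to 1.50 and the other 10 from 0.54 to 0.88. Within the JHD2 deletion experiment INO2 gave 230, 182 and 65.8 in the deletion against 201, 204 and 83.5 in its wild type, with replicate 3 the lowest of each. INO2 gave 65.8 to 107 on those 4 arrays and 168 to 292 on the other 10, without overlap, as did 293 tested genes (5.41%) in the same direction. No other member separated the arrays in this way, and INO1 gave 50.8 to 82.8 on the 4 arrays within a range of 38.3 to 489 on the others.

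With this ratio as a covariate, added after the data were seen, the changes of INO2 and INO4 in the overexpression strain were closer to 0, as given above. INO1 was at -3.14, OPI3 at -0.95, CHO1 at -0.67, HNM1 at -0.98 and ITR1 at -0.69, and these 5 of 10 members were called lower, where 0.351% of all tested genes were called lower in the same fit. OPI1 was at -0.88, PSD1 at -0.85 and CHO2 at -0.27, none of them called. The slope on the ratio in this fit comes from differences within groups, which were largest in the JHD2 deletion experiment. In the overexpression experiment the strain and its wild type do not overlap in the ratio. Strain and RNA quality therefore cannot be told apart there, and the adjusted values lean on the other experiment's slope. The part of RNA quality in the INO2 and INO4 values beyond this fit was not tested.

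**Figure D4:**
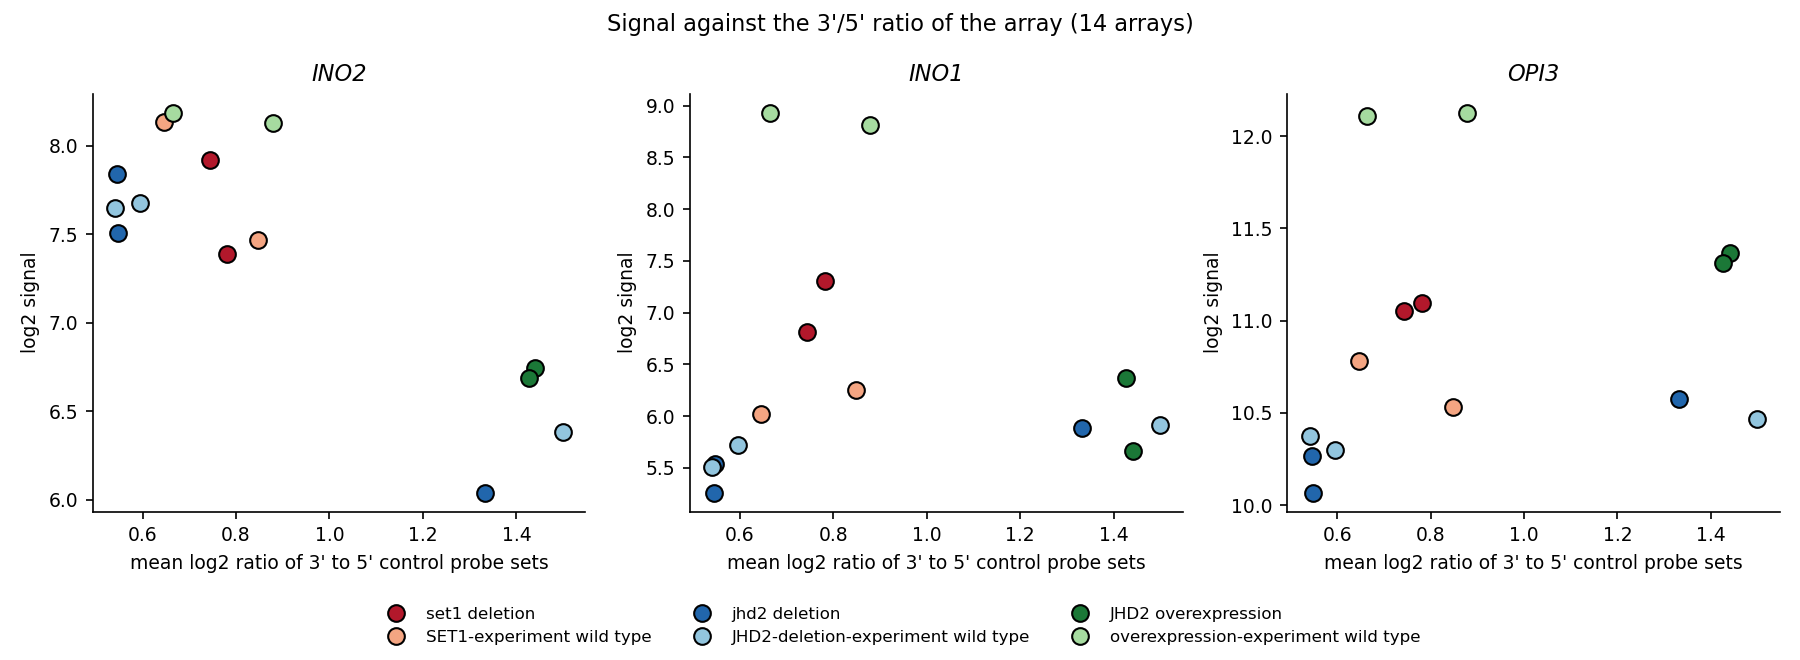
Log2 signal of INO2, INO1 and OPI3 on the 14 arrays against the mean log2 ratio of 3′ over 5′ probe sets for the control genes. The 4 arrays with a ratio from 1.33 to 1.50 have the lowest INO2 signals, while INO1 and OPI3 are highest on the 2 arrays of the overexpression-experiment wild type.

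A list of 43 other phospholipid genes, all tested, was examined alongside: users of CDP-diacylglycerol, the Kennedy pathway that makes phosphatidylcholine from choline, supply and use of phosphatidate, inositol recycling, phospholipid breakdown, fatty acid synthesis and regulators. None of the 43 was called in the set1 deletion, the jhd2 deletion or the overexpression strain against its wild type, where 0.259%, 0.0369% and 0.517% of all tested genes were called. Of the 43, 6, 3 and 16 had an unadjusted p under 0.05 in limma, where 8.33%, 1.83% and 19.4% of all tested genes did. Their median changes were -0.04, -0.03 and -0.06. The count in the overexpression strain was 1 to 3 without either SET1-experiment wild-type array or without replicate 3 of the jhd2 deletion or its wild type. In the overexpression strain 17 of the 43 changes were positive and 26 negative. They ran from -1.03 for CKI1, which encodes choline kinase, to 0.89 for UME6, which encodes a DNA-binding regulator, and neither was called. CKI1 averaged 390 ± 21.2 in the overexpression strain against 798 ± 63.2 in its wild type, and UME6 535 ± 25.1 against 293 ± 82.4 (SD, n = 2 each). Both were named as the ends of the range, after their values were seen.

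Between wild types, 5 of the 43 were called higher in the overexpression experiment than in the JHD2 deletion experiment, and 0 lower, with a median of 0.11 for the list. This is close to the 10.7% of all tested genes called higher there, so the count does not set the list apart. PCT1, which makes CDP-choline in the Kennedy pathway, was higher by 0.96 ± 0.20 log2 units (limma, adjusted p = 0.00751) and CKI1 by 0.94 ± 0.23 (limma, adjusted p = 0.0192). INM2, an inositol monophosphatase, was higher by 0.61 ± 0.14 (limma, adjusted p = 0.0131) and NEM1, part of the phosphatase that activates the phosphatidate phosphatase Pah1, by 0.72 ± 0.18 (limma, adjusted p = 0.0181). The fifth, SPO14, a phospholipase D, is named after its value was seen (0.51 ± 0.15). The count was 1 without either array of that wild type, 3 without wild-type array 2 of the JHD2 deletion experiment and 8 without either SET1-experiment wild-type array.

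PIS1, the phosphatidylinositol synthase, ran the other way. It was higher in the wild type of the SET1 experiment, with 3352 ± 165, than in that of the overexpression experiment, with 2121 ± 248 (SD, n = 2 each), a log2 difference of 0.66 ± 0.11 (limma, adjusted p = 0.00349). CDS1, the CDP-diacylglycerol synthase, was lower in the same comparison, at -0.52 ± 0.14 (limma, adjusted p = 0.0466). These were 2 of the 43, where 8.11% of all tested genes were called in either direction, and the list median was -0.12. The count was 0 without overexpression-experiment wild-type array 1, where PIS1 also lost its call, 1 without 6 other arrays (PIS1 alone), 4 without SET1-experiment wild-type array 2, 3 without jhd2 deletion array 3 and 7 without wild-type array 3 of the JHD2 deletion experiment. Between the wild types of the SET1 and JHD2 deletion experiments 0 of the 43 were called, where 0.388% of all tested genes were. In the same comparison 7 of the 43 had an unadjusted p under 0.05 in limma, where 13.5% of all tested genes did.

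**Figure D5:**
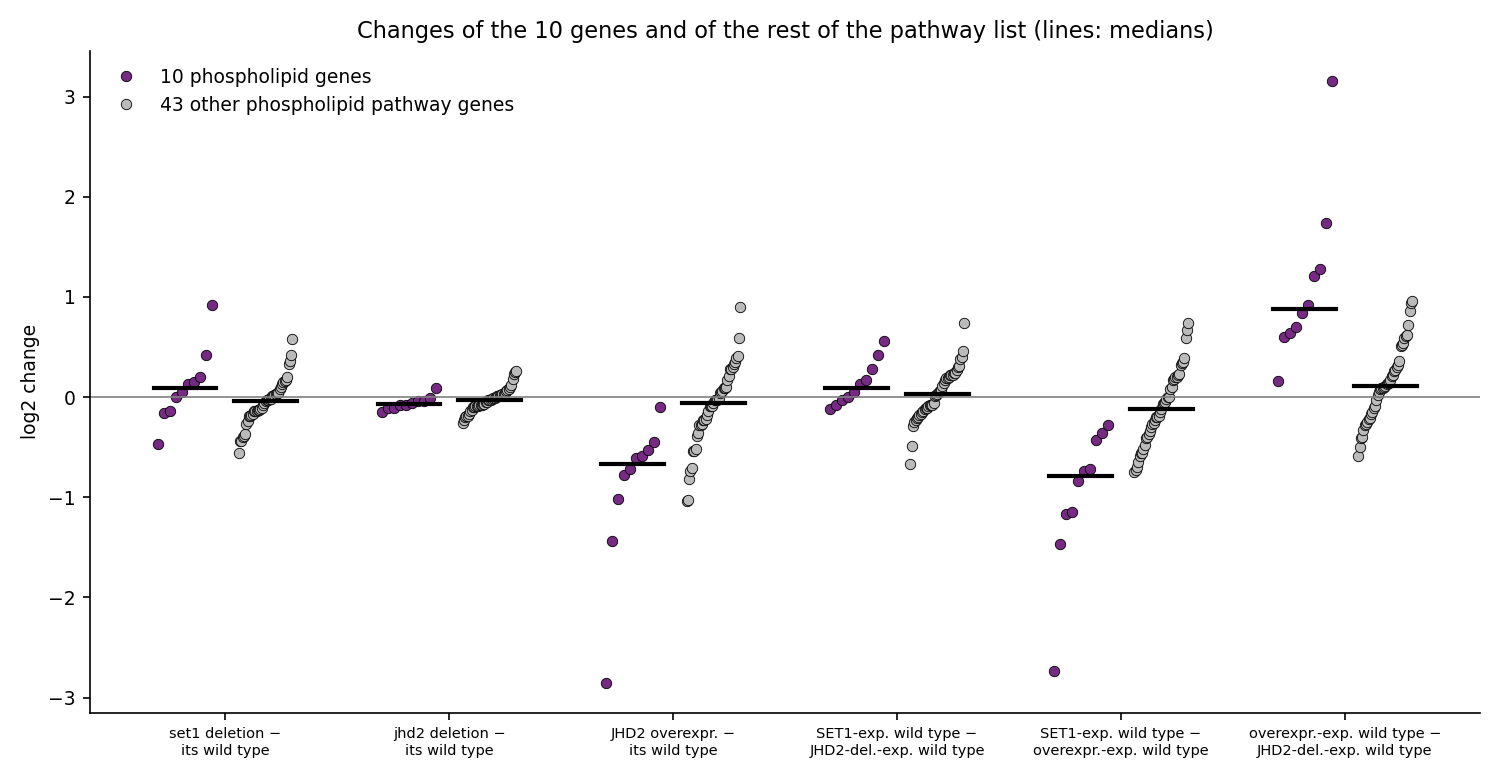
Log2 changes of the 10 genes and of the 43 other phospholipid genes in 6 comparisons, sorted within each column, with the median as a line. The medians of the 10 are -0.66, -0.79 and 0.88 in the columns that involve the overexpression-experiment wild type, against -0.06, -0.12 and 0.11 for the 43.

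Over the 14 arrays the log2 signals of the members were compared with INO1 as a description, since all points share the array scaling and the high overexpression-experiment wild type. Pearson's r with INO1 was 0.90 for CHO1 and HNM1, 0.88 for ITR1, 0.87 for OPI3 and 0.86 for PSD1. It was 0.75 for OPI1, 0.55 for INO4, 0.42 for INO2 and 0.41 for CHO2. Without the 2 arrays of that wild type (n = 12) r ranged from 0.67 for ITR1 to -0.47 for INO4, so the order rests largely on them.

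Among genes outside the set, the 5 most like INO1 over the 14 arrays were ZPS1 (r = 0.94), MOG1 (0.91), MOB1 (0.90), OPT2 (0.87) and ZRT3 (0.87). ZPS1, a cell-surface protein gene, averaged 484 ± 34.6 in the overexpression strain against 5834 ± 111 in its wild type, and 387 ± 6.13 in the set1 deletion against 253 ± 35.5 in its wild type (SD, n = 2 each). Without the 2 arrays of the overexpression-experiment wild type r was 0.66 for ZPS1, 0.87 for MOG1, 0.65 for MOB1, 0.54 for OPT2 and 0.64 for ZRT3. With each experiment centred on its own mean, ZPS1 (0.96) again came first, followed by YIP3, NOP7, ERB1 and COX23 (0.88 to 0.86). Uncentred and without those 2 arrays, r was 0.28 for YIP3, -0.10 for NOP7, 0.23 for ERB1 and 0.51 for COX23. The 5 most like OPI3 were GGC1 and ZRT1 (both 0.96) with DUR3, ZPS1 and QDR3 (each 0.95). Over the 12 arrays left, r with OPI3 ran from 0.86 for QDR3 to 0.97 for ZPS1. ZRT1 encodes a zinc transporter and DUR3 a urea transporter.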

How the data were processed

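RNA from yeast cultures was hybridised to 14 Affymetrix Yeast 2.0 arrays. Each deposited value is a probe set's linear intensity, computed by the authors with MAS5 per the submitters' processing notes; the sources used here name no genome build. With the brightest and dimmest 2% of probe sets left out, array means were 500.2 to 500.3, so the arrays had been scaled alike. Of 10928 probe sets, 5498 matched 1 S. cerevisiae gene, 1746 were S. pombe (used as background), 3683 carried no gene name and 1 named several genes. The brightest probe set was kept for 47 genes with several, and 34 genes below the 95th percentile of S. pombe means were not tested.

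Values under 1 were set to 1, put on the log2 scale and fitted with 6 group means in limma 3.58.1 (R 4.3.3, intensity trend, prior degrees of freedom 4.12, residual 8), two-sided, and the procedure was tested on simulated data. Arrays with the same replicate number deviated together in the JHD2 deletion experiment (r = 0.64, 0.62 and 0.69 over genes), so these numbers were treated as pairing samples. This choice comes from the data, and the labels do not state what the number marks. Both replicate 3 arrays also had a high 3′/5′ ratio, which these correlations do not separate from a pairing. The block changed no member call there. The members and gene lists were chosen with earlier results of these data known. Genes named are all members, label checks, up to 4 called genes of the pathway list per comparison and the 5 genes most like INO1 and OPI3; SPO14, UME6, CKI1 in the overexpression strain, and the neighbouring genes were named after their values were seen. The number of arrays limits the precision.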

Additional observations from a re-analysis of the deposited data

Results flagged for a closer look

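The change of INO1 differed between comparisons beyond the threshold over all tested genes: it was 3.77 log2 units higher in the set1 deletion than in the JHD2 overexpression strain, and 2.70 higher in the jhd2 deletion than in the overexpression strain. The change of OPI3 differed by 1.20 between the set1 deletion and the overexpression strain. Each is a difference between changes against separate wild types, so the high signal of the overexpression-experiment wild type enters all 3, and since the members were chosen from these changes the values are descriptions.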

How the results depend on the processing

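The call of INO1 in the overexpression strain was kept in 14 of 14 omissions of 1 array (log2 change -3.20 to -2.50) and in 11 of 11 other settings of normalization, model and threshold against its own wild type. OPI3 kept its call in 5 of 14 and 9 of 11 and CHO1 in 4 of 14 and 8 of 11. The 3 members called there became 1 with median centring or no intensity trend, 8 with only the arrays of the groups compared or without replicate 3 of both groups of the JHD2 deletion experiment, 9 with array weights, 9 with the replicate block and 5 with the 3′/5′ ratio as a covariate. The share of all tested genes called lower moved the same way except with the covariate, where it stayed at 0.351%: it was 0.166% with median centring, 0.148% without the trend, 10.2% with only the arrays compared, 8.35% without both replicate 3 arrays, 11% with array weights and 11.5% with the replicate block. Against the SET1-experiment wild type 1 was called, higher, and the changes turned to 0.25 for CHO1 and 0.68 for OPI3; against the JHD2-deletion-experiment wild type they turned to 0.31 for INO1, 0.25 for CHO1 and 0.96 for OPI3. For the set1 deletion against overexpression, the 2 calls became 1 without the trend (0.351% of all genes called higher), 4 without both replicate 3 arrays and 6 with the replicate block (3.43% and 6.72% of all genes called higher). For the jhd2 deletion against overexpression, the 1 call became 0 with quantile normalization (0.0923%), 4 with array weights or without both replicate 3 arrays and 5 with the replicate block (7.81%, 4.56% and 5.24% of all genes called higher). With 1 array left out, member counts ran from 1 to 4 in the overexpression strain, 3 to 7 and 4 to 8 for its wild type against those of the SET1 and JHD2 deletion experiments, 1 to 2 and 0 to 1 for the set1 and jhd2 deletions against overexpression, and stayed at 0 elsewhere.

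Of the 43 other genes, calls in the overexpression strain were 2 with quantile normalization or adjusted p under 0.10, 13 with only the arrays compared, 14 with array weights, 14 with the replicate block and 11 without both replicate 3 arrays; against the JHD2-deletion-experiment and SET1-experiment wild types there were 6 and 8. The set1 deletion had 1 with the replicate block and the jhd2 deletion 1 with array weights. Between the wild types of the SET1 and overexpression experiments there were 1 without the trend, 0 with only the arrays compared, 6 at adjusted p under 0.10, 11 without both replicate 3 arrays and 10 with the ratio covariate. Between those of the overexpression and JHD2 deletion experiments there were 9 with quantile normalization, 14 with array weights, 12 at adjusted p under 0.10 and 10 with the covariate, and between those of the SET1 and JHD2 deletion experiments 1 without both replicate 3 arrays. With 1 array left out these ranges were 0 to 3 in the overexpression strain, 0 to 7 and 1 to 8 in the first and second of these wild-type comparisons, and 0 elsewhere. Beyond the shares given above for the overexpression strain, the counts of the 43 stand without the share of all tested genes in the same setting. They are therefore not a result about the list. Scaling moved the direction of the calls over all genes between wild types: 66.1% were higher for the overexpression experiment's against the JHD2 deletion experiment's, but 43.9% with median centring and 46.1% with quantile normalization, and 35.3% for the SET1 experiment's against the overexpression experiment's, but 70.6% and 53.5%. The median of all genes was 0.07 as reported against -0.06 in the first and -0.10 against 0.08 in the second with median centring; 8 members were still called higher in the first and 4 lower in the second. The cause of these shifts was not tested.

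Same-numbered deviations correlated at 0.73 in the SET1 experiment and at -0.14 in the overexpression experiment, where the arrays share only a number. With the overexpression numbers crossed, the block gave 9 members called in the overexpression strain, 6 and 7 for the set1 and jhd2 deletions against overexpression, and 2 and 15 of the 43 in the set1 deletion and the overexpression strain. The block could not be estimated between wild types. The few arrays, and RNA whose 3′/5′ ratio differed between them, limit what can be seen at genes such as INO2.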

Other observations

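MOG1 (YJR074W), the gene second most like INO1 over the arrays, lies next to OPI3 in the RefSeq R64 gene table and is transcribed away from it. MOG1 encodes a nuclear import factor. After this was seen, the 20 protein-coding neighbours of the 10 members were listed, all of them tested. Between the wild types of the overexpression and JHD2 deletion experiments, 2 of the 3 neighbours transcribed away from a member were called higher, and 0 of the 17 other neighbours were called in either direction. Of all tested genes, 10.7% were called higher and 5.5% lower in that comparison. MOG1 gave 978 and 1130 in the overexpression-experiment wild type against 479, 451 and 599 in that of the JHD2 deletion experiment (1.06 ± 0.19, limma, adjusted p = 0.00323). YOL107W, beside INO4, gave 288 and 304 against 194, 180 and 177 (0.69 ± 0.17, limma, adjusted p = 0.018). YDR124W, beside INO2, gave 58.0 and 63.4 against 45.7, 30.8 and 28.8 (0.82 ± 0.30, limma, adjusted p = 0.0782, not called). MOG1 was called with any 1 array left out, and YOL107W without any array but either of the overexpression-experiment wild type. No neighbour was called in the set1 deletion, the jhd2 deletion or the overexpression strain, where MOG1 was at -0.70 ± 0.21 and YOL107W at -0.58 ± 0.18. The neighbours were looked up after values had been seen, and the difference between the orientations was not tested.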
